A study of Danio rerio with 8 samples.

Results

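The strongest stretches of chromatin that were open in tp63 mutant and wild type (WT) zebrafish embryos at both stages sampled are described here. They were chosen by measured values of the 4 deposited peak lists. Within a list, peaks were placed in order of the authors' −log10 p-value, and equal ones in order of fold enrichment. Peaks of different lists that overlapped by at least 1 bp were merged into regions. A region was kept when it held a peak of rank 10000 or better from every list, lay on chromosomes 1 to 25 outside chromosome 4 from 30 Mb on, and contained no peak of 800 bp or wider. This gave 4977 of 137841 regions, or 3.61%. They were set beside the 36064 other regions of the same chromosomes that had a peak in all 4 lists at any rank. The limit on peak width was not applied to these other regions.

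The study asked whether p63 is needed for chromatin to open during development of the ectoderm, and assayed whole embryos by ATAC-seq, in which the Tn5 transposase cuts accessible DNA and inserts sequencing adapters there. The groups, of 2 libraries each, were tp63 -/- embryos at 36 hours post fertilization (hpf), WT embryos at 36 hpf, tp63 -/- embryos at 8 somites and WT embryos at 8 somites. At 36 hpf a library came from a small pool of embryos, while at 8 somites it came from 1 embryo of tp63 +/- parents that was genotyped after tagmentation. Stage therefore cannot be told apart from the input, and the 2 instruments used were not assigned to libraries in the sources used here. The genotype could not be checked in peak lists, and all cell types of the embryo were mixed, so that a smaller number of open cells and a weaker opening per cell cannot be told apart.

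The transcription factor p63 directs the formation of the epidermis and other stratified epithelia in vertebrates and is known to act largely on enhancers. Enhancers tend to be open in particular cell types, whereas chromatin that stays open across cell types is known to lie mainly at promoters of widely used genes and at sites bound by the insulator protein CTCF. Whether the regions described below are promoters, enhancers or CTCF sites was not analysed here, since no genome sequence or gene annotation of the build of the lists, GRCz10, was used. Positions are on GRCz10 and count from 1.

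Each group was represented by 1 list made from both of its replicates, with between 76556 and 96625 peaks. The read depth of each library cannot be read from peak lists, and no value per replicate was used. The variation between embryos was therefore not measured, and no test was run. Intervals below are 95% intervals (Wilson for shares, order statistics for medians) and cover counting error over regions only. In total, 42089 regions had a peak in all 4 lists and 15450 had a peak of rank 10000 or better in at least 1 list. Such a peak was present in exactly 1 list for 4247 regions, in exactly 2 lists for 3564 and in exactly 3 lists for 2007, while 5632 had one in every list. Of these 5632 regions, 520 were left out for a wide peak alone, 104 for their position alone and 31 for both. The regions that remained held between 49.85% and 49.87% of the 10000 top peaks of each list.

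The rank limit corresponded to a −log10 p-value of 50.8 for mutants at 36 hpf, 46.5 for WT at 36 hpf, 38.5 for mutants at 8 somites and 47.6 for WT at 8 somites. The region with the worst rank that still qualified by its mutant list at 8 somites was chr7:55883180-55883574, with a −log10 p-value of 38.49 and rank 10000 there. At the same rank in the WT list at 36 hpf stood chr20:4132535-4133171, and chr9:42093197-42093625 stood at rank 9996 in the mutant list at 36 hpf. Just outside the limit were chr14:51735759-51736249 at rank 10004 in the WT list at 36 hpf, chr11:44002328-44002788 at rank 10005 in the mutant list at 8 somites and chr13:11685688-11686520 at rank 10007 in the same list. Their −log10 p-values at those ranks were 46.46, 38.48 and 38.48, so the border fell within a continuum of values.

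The worst of the 4 ranks came from each list about equally often. It was set by mutants at 36 hpf in 1194 regions, by WT at 36 hpf in 1206, by mutants at 8 somites in 1333 and by WT at 8 somites in 1244. Regions that failed in a single list were counted before the criteria on width and position. Of these, 395 lacked a qualifying peak only in the mutant list at 36 hpf, with a median rank of 11937 there, and 473 lacked one only in the WT list at 36 hpf, with a median rank of 11983. The corresponding numbers were 577 regions and rank 12766 for the mutant list at 8 somites, and 562 regions and rank 12309 for the WT list at 8 somites.

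The values that chose the regions were high in every list by construction and are given as a description. The median fold enrichment of the highest-ranked peak was 11.5 in mutants at 36 hpf, 11.7 in WT at 36 hpf, 13.4 in mutants at 8 somites and 14.7 in WT at 8 somites. The same medians over the other regions present in all 4 lists were 7.38, 7.20, 8.29 and 9.39, in the same order of lists. The median −log10 p-values of the strongest regions were 71.1, 67.4, 55.03 and 65.9, in that order. Fold enrichment was thus lowest, and the −log10 p-value highest, in the mutant list at 36 hpf, so that the measures did not order the lists alike. The global irreproducible discovery rate (IDR) compares peak ranks between replicates, and its −log10 reached the largest value in the lists, 5, for 99.6%, 99.9%, 95.5% and 99.4% of the strongest regions, against 23.5%, 25.9%, 10.6% and 18.9% of the other regions. Since the IDR rests on ranks and the regions were chosen by ranks, these shares are not independent of the rule. The median width of the highest-ranked peak was 448, 423, 392 and 411 bp in the strongest regions and 376, 353, 339 and 359 bp in the others, always in that order of lists. More than 1 peak of the same list was held by 2.11% to 2.97% of the strongest regions. The other regions were similar, with 2.22% to 3.20%.

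**Figure D1:**
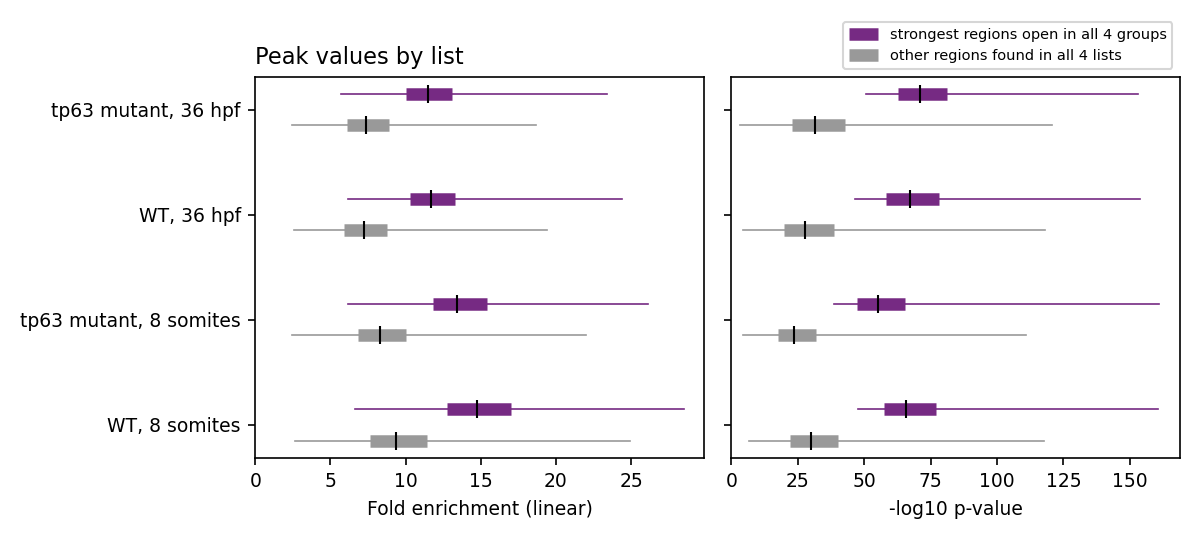
Fold enrichment (left, linear) and −log10 p-value (right) of the highest-ranked peak in each list, for the 4977 strongest regions and the 36064 other regions with a peak in all 4 lists. Thin lines span the lowest to the highest value, thick bars the quartiles and black ticks the median. The −log10 p-values of the strongest regions begin at the rank limit of each list, between 38.5 and 50.8.

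The 3 regions with the smallest worst rank stood at rank 4 or better in every list. In 23 regions the rank was 100 or better in every list, in 372 it was 1000 or better, in 1084 it was 2500 or better and in 2351 it was 5000 or better. At the head stood chr17:53292563-53292909, 347 bp long. Its fold enrichment was 18.5 in mutant and 20.8 in WT embryos at 36 hpf, and 26.2 in mutant and 25.7 in WT embryos at 8 somites. It ranked 3, 1, 2 and 2 in these lists, and its 4 summits lay within 15 bp. The region chr20:4437645-4438069 ranked 1, 3, 1 and 1, with fold enrichments of 18.6 and 19.9 in mutant and WT embryos at 36 hpf and of 24.96 and 26.5 in mutant and WT embryos at 8 somites. It was more isolated, with the nearest other region 10859 bp away, against 839 bp for the first. The region chr5:826081-826672 ranked 2, 4, 3 and 4, and its fold enrichment was close in the 4 lists, at 21.0 in mutant and 20.3 in WT embryos at 36 hpf and 21.2 in mutant and 21.3 in WT embryos at 8 somites.

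The next 7 regions by worst rank were chr8:8762948-8763550, chr22:32273990-32274533, chr15:37687928-37688364, chr20:52458981-52459660, chr20:53133833-53134293, chr16:50489313-50489789 and chr20:54159930-54160623. Over the first 10 regions, fold enrichment was 15.9 to 21.0 in mutants at 36 hpf, 16.4 to 20.8 in WT at 36 hpf, 19.5 to 26.2 in mutants at 8 somites and 18.8 to 26.5 in WT at 8 somites. Deposited fold enrichment was higher at 8 somites than at 36 hpf in every one of them in mutants. In WT this held in all except chr20:52458981-52459660, where fold enrichment was 20.03 at 36 hpf and 18.8 at 8 somites. The −log10 p-value did not always follow this order. In mutants it was 147 at 36 hpf and 124 at 8 somites in chr5:826081-826672, but 143 and 156 in chr17:53292563-53292909. The lists differed in general level, as described below. Of the 10, 4 lay on chromosome 20, and 3 of those between 52458981 and 54160623. Chromosome 20 held 225 of the 4977 strongest regions, or 4.52%. They made up 13.7% of its regions with a peak in all 4 lists, against 12.1% over all chromosomes used. Nothing is read from the positions of 10 regions. In chr20:52458981-52459660 peak width differed while the summit did not move far. The peak was 665 bp wide in mutant and 380 bp in WT embryos at 36 hpf, and 368 bp in mutant and 362 bp in WT embryos at 8 somites, and the 4 summits lay within 10 bp.

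**Figure D2:**
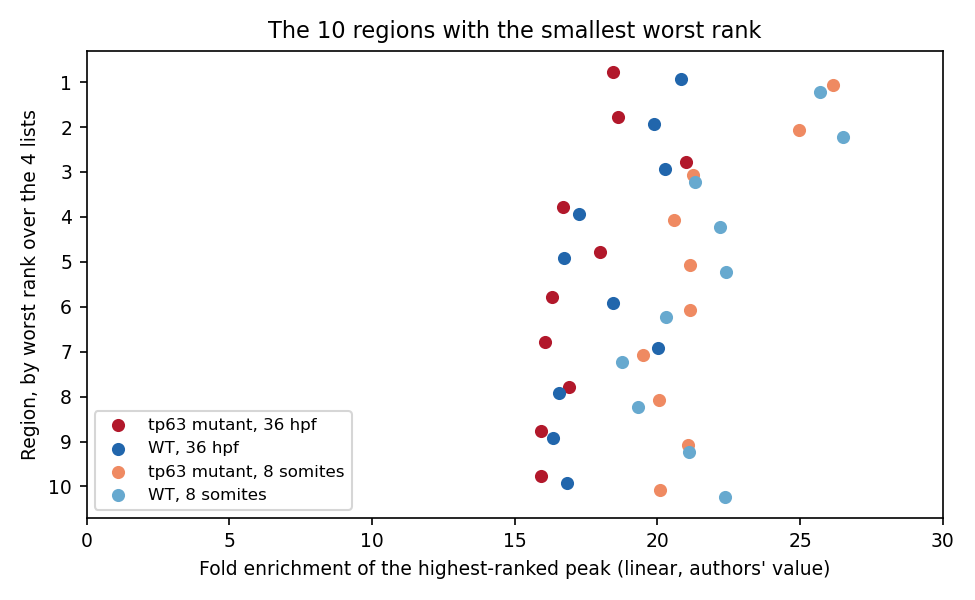
Fold enrichment (linear, as deposited) of the 10 regions with the smallest worst rank, 1 point per list, ordered from the smallest worst rank at the top. In region 3, chr5:826081-826672, the 4 points lie between 20.3 and 21.3, and in the others most 8 somites points lie to the right of the 36 hpf points.

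The summit, the base of highest signal within a peak, was not used to choose the regions and showed how precisely the same site was marked in the 4 lists. The outermost of the 4 summits lay a median of 25 bp apart (24 to 26 bp, n = 4977) in the strongest regions, against 43 bp (42 to 43 bp, n = 36064) in the other regions. All 4 summits fell within 50 bp in 3984 of the strongest regions, or 80.0% (78.9 to 81.1%), against 57.5% (57.0 to 58.0%) of the others. Within 20 bp they fell in 42.7% of the strongest regions and in 26.1% of the others. At the far end, 172 of the strongest regions, or 3.46%, had summits spread beyond 100 bp, against 14.1% of the others. The limit on peak width, which the others did not have to meet, can by itself keep summits closer. Of the 5497 regions kept without that limit, 79.0% had all 4 summits within 50 bp. Classes by worst rank held only regions without a peak of 800 bp or wider. In them, summit spread widened step by step with worst rank, also beyond the rank limit that defined the strongest regions. The median spread was 21.5 bp for worst ranks up to 1000 (n = 372), 23.0 bp for 1001 to 2500 (n = 712), 24.0 bp for 2501 to 5000 (n = 1267) and 27.0 bp for 5001 to 10000 (n = 2626). It was 31.0 bp for worst ranks of 10001 to 20000 (n = 5354), 38.0 bp for 20001 to 40000 (n = 10507) and 49.0 bp for ranks past 40000 (n = 18197). No step at rank 10000 set the regions apart in this measure. Stronger peaks were also wider, with a median widest peak of 526 bp in the first of these classes and 398 bp in the last, and had higher −log10 p-values by the rule. The part of signal strength in the summit spread was not tested.

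Between 2 lists, summits were closest in embryos of the same stage. The median distance was 8 bp (7 to 8 bp) between mutant and WT at 36 hpf and 9 bp (9 to 9 bp) between mutant and WT at 8 somites. It was 10 bp (10 to 11 bp) between 36 hpf and 8 somites in mutants and 10 bp (9 to 10 bp) between the stages in WT. Both summits were within 20 bp in 74.3% (73.1 to 75.5%) and 71.8% (70.5 to 73.0%) of regions in the genotype pairs at 36 hpf and 8 somites, and in 67.7% (66.4 to 69.0%) and 69.4% (68.1 to 70.6%) in the stage pairs of mutants and WT. The pairs share lists, so these shares are not independent. In the other regions the shares of these 4 pairs were lower, at 59.9% and 57.9% in the genotype pairs and 53.7% and 54.4% in the stage pairs. The closer summits within a stage were thus not particular to the strongest regions.

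**Figure D3:**
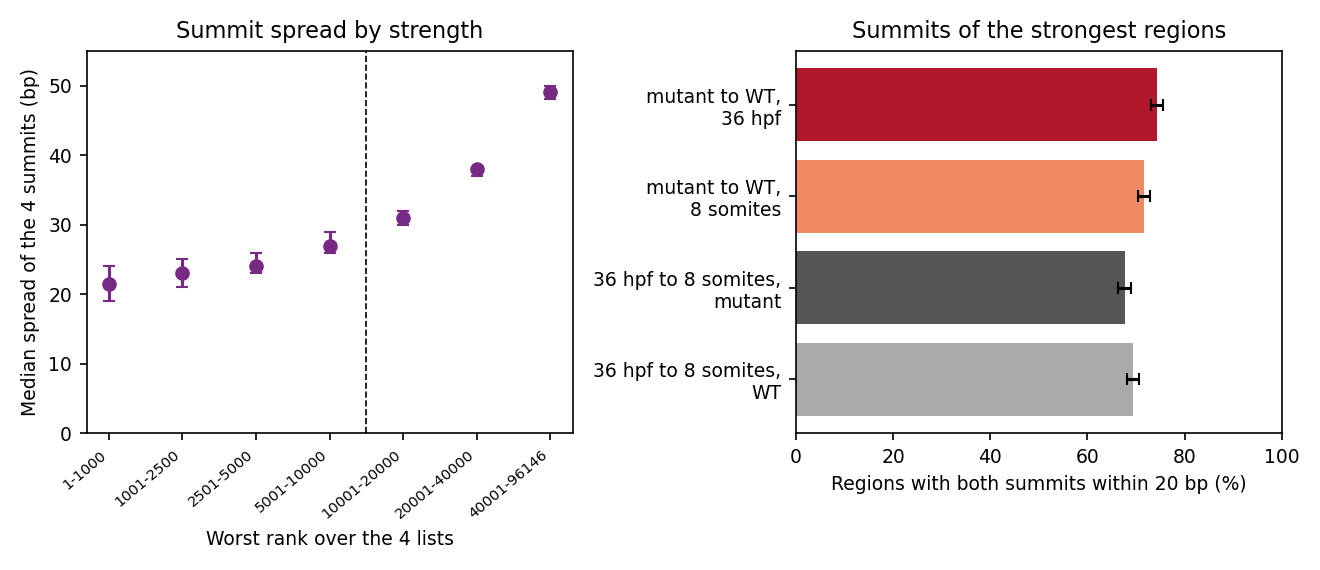
Left, median distance between the outermost of the 4 summits (bp) by worst rank over the 4 lists, in regions without a peak of 800 bp or wider. Bars are 95% intervals of the median. The dashed line marks the rank limit of 10000, and the median runs from 21.5 to 49.0 bp. Right, share of the 4977 strongest regions with both summits within 20 bp for each pair of lists, with Wilson 95% intervals; the shares lie between 67.7% and 74.3%.

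In a few regions the highest summit differed with stage. Regions were counted in which both genotypes had their summits within 20 bp of each other at each stage while the summits of the stages lay more than 100 bp apart in both genotypes. There were 12 such regions among the 4977, or 0.24%, against 213 of 36064, or 0.59%, of the other regions. The reverse pattern, with summits apart by genotype at both stages, was found in 1 of the strongest regions and in 54 of the others. The crossed pattern, with each summit shared only by the mutant of one stage and the WT of the other, was likewise found in 1 region (0.0201%) and in 52 of the others (0.144%). These patterns and the regions named for them were chosen after the values were seen.

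A region can merge several peaks of a list, and the summit is that of the highest-ranked one, so that a shift can be a change in which peak ranked highest. The region with the widest difference by stage was chr25:10533034-10533890, 857 bp long with 9 peaks over the 4 lists, where the summit lay at base 152 of the region in mutant and base 150 in WT embryos at 36 hpf, and at base 702 in mutant and base 701 in WT embryos at 8 somites. The stages were thus 550 bp apart in mutants and 551 bp in WT, and the genotypes 2 bp apart at 36 hpf and 1 bp at 8 somites. In chr23:46015724-46016308, with 5 peaks, the stages were 296 bp apart in mutants and 295 bp in WT, again with the lower base number at 36 hpf. In chr9:52100692-52101351 the summit at 36 hpf had the higher base number, by 249 bp in mutants and 248 bp in WT. In chr10:16881429-16881883, with 7 peaks, the distance between stages was 236 bp in mutants and 225 bp in WT, and fold enrichment was 8.78 in mutant and 8.60 in WT embryos at 36 hpf, against 13.1 in mutant and 12.2 in WT embryos at 8 somites. The other 9 of the 12 regions held 4 peaks, 1 per list, as did both regions that follow. The single region with summits apart by genotype was chr21:36338360-36339118, with summits at base 594 in mutant and base 480 in WT embryos at 36 hpf, and at base 590 in mutant and base 476 in WT embryos at 8 somites. The crossed one was chr24:38404507-38404967, with summits at bases 327 and 122 in mutant and WT embryos at 36 hpf and at bases 112 and 341 in mutant and WT embryos at 8 somites.

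**Figure D4:**
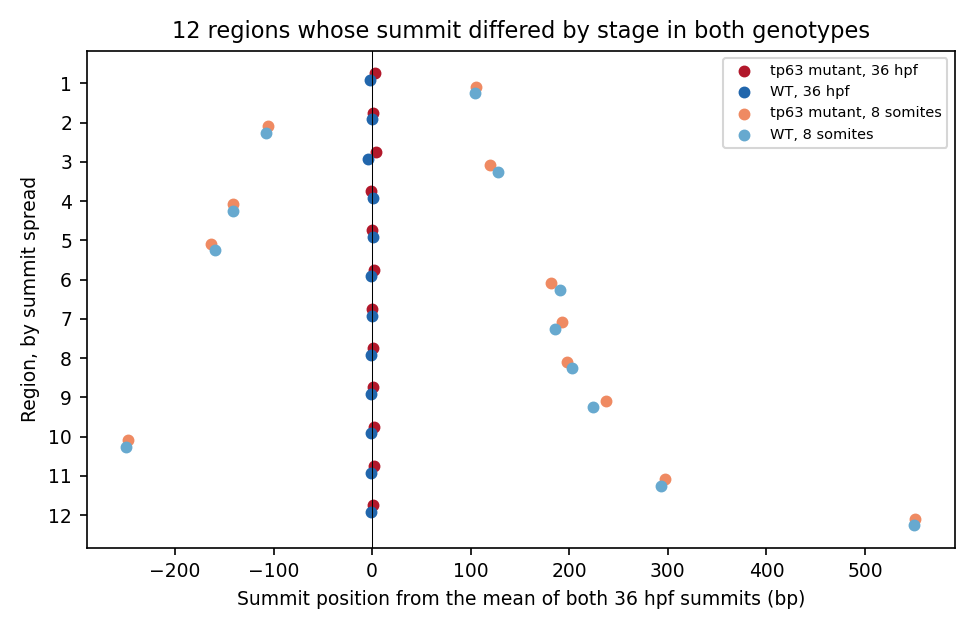
Summit positions in the 12 strongest regions whose summit differed by stage in both genotypes, in bp from the mean of both 36 hpf summits, 1 point per list, ordered by summit spread with the widest at the bottom. Points of mutant and WT embryos of one stage overlap, while the 8 somites points lie more than 100 bp from the 36 hpf points on either side.

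Differences in accessibility were then described by ratios of fold enrichment. Each ratio was divided by its median over the 42089 regions with a peak in all 4 lists, which was 1.01 for mutant over WT at 36 hpf, 0.898 for mutant over WT at 8 somites, 0.884 for 36 hpf over 8 somites in mutants and 0.785 for 36 hpf over 8 somites in WT. A scaled ratio is therefore relative to the general level of both lists. The standard deviation of the log2 scaled ratio over the strongest regions was 0.14 and 0.15 for mutant over WT at 36 hpf and 8 somites, and 0.18 and 0.20 for 36 hpf over 8 somites in mutants and WT. It was 0.23, 0.25, 0.34 and 0.36 over the other regions, in the same order. The requirement of a high rank in all lists narrows these ratios by itself. Medians were near 0, at −0.05, 0.03, −0.06 and 0.03 on the log2 scale.

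Few regions passed a scaled ratio of 1.5. At 36 hpf, 2 were higher and 2 lower in mutants than in WT, where 1.13% of all 42089 regions passed in the higher and 0.461% in the lower direction. At 8 somites, 1 was higher and 0 were lower, with 0.862% and 1.38% of all regions passing. For the count of 0 the Wilson interval reached 0.0771%, which covers counting error over these chosen regions only. For 36 hpf over 8 somites in mutants, 6 were higher and 9 lower, with 3.77% and 3.55% of all regions passing, and in WT 24 were higher and 8 lower, with 3.62% and 5.65%. The rule chose regions on the values of these contrasts, and nothing is read from the counts. The split depended on scaling. With ratios as deposited, 2 were higher and 2 lower for genotype at 36 hpf, 0 higher and 9 lower for genotype at 8 somites, 0 higher and 119 lower for stage in mutants, and 0 higher and 406 lower for stage in WT. Ratios as deposited include the difference in general level between the lists. Their share past 1.5 over all 42089 regions was not computed, so nothing is read from these counts either.

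The 5 regions past 1.5 between genotypes, named after their values were seen, each passed at 1 stage. Fold enrichment in chr3:57507653-57508148 was 20.05 in mutant and 12.5 in WT embryos at 36 hpf, and 23.3 in mutant and 24.6 in WT embryos at 8 somites, so that the WT list at 36 hpf stood below the other lists. The same held for chr8:8056443-8056964, with 17.2 in mutant and 10.9 in WT embryos at 36 hpf, and 17.8 in mutant and 19.2 in WT embryos at 8 somites. In chr12:1018665-1018995 the mutant list at 36 hpf was low, with 10.9 in mutant and 16.5 in WT embryos at 36 hpf, and 15.2 in mutant and 15.2 in WT embryos at 8 somites. In chr5:17502705-17503180 the WT list at 36 hpf stood above the others, with 7.67 in mutant and 12.7 in WT embryos at 36 hpf, and 8.45 in mutant and 9.21 in WT embryos at 8 somites. The last was chr14:19788790-19789459, with 8.02 in mutant and 7.85 in WT embryos at 36 hpf, and 14.8 in mutant and 10.97 in WT embryos at 8 somites. Its log2 scaled ratio of mutant over WT was 0.02 at 36 hpf and 0.59 at 8 somites. In all 5, the genotypes thus differed past 1.5-fold at 1 stage and by a scaled log2 ratio of at most 0.15 at the other.

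Each genotype ratio could be set beside that of the other stage, and each stage ratio beside that of the other genotype, without a list in common. Over the 4977 regions, the log2 ratios of mutant over WT at 36 hpf and at 8 somites had a Pearson r of −0.08 and a Spearman rho of −0.08, and had the same sign in 45.1% of regions. The log2 ratios of 36 hpf over 8 somites in mutants and in WT had r = 0.34 and rho = 0.31, with the same sign in 58.3%. In the 36064 other regions r was −0.03 for genotype and 0.50 for stage, with the same sign in 49.1% and 66.3% of regions. These correlations are across regions of the same libraries, which are not independent replicates, and are given as a description. Beyond 0.2 on the log2 scale at both stages, 23 of the 4977 regions were higher and 30 lower in mutants, and 120 had opposite signs. Beyond the same limit in both genotypes, 164 were higher and 211 lower at 36 hpf than at 8 somites, and 82 had opposite signs. Among the 36064 other regions, a larger set, 1398 were higher, 1260 lower and 2985 of opposite sign for genotype. For stage, 4865 of them were higher, 5179 lower and 1991 of opposite sign. The rule used these values, and the medians of the genotype ratios over the strongest regions, −0.05 and 0.03, already differed in sign, so nothing is read from the counts of the strongest regions.

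**Figure D5:**
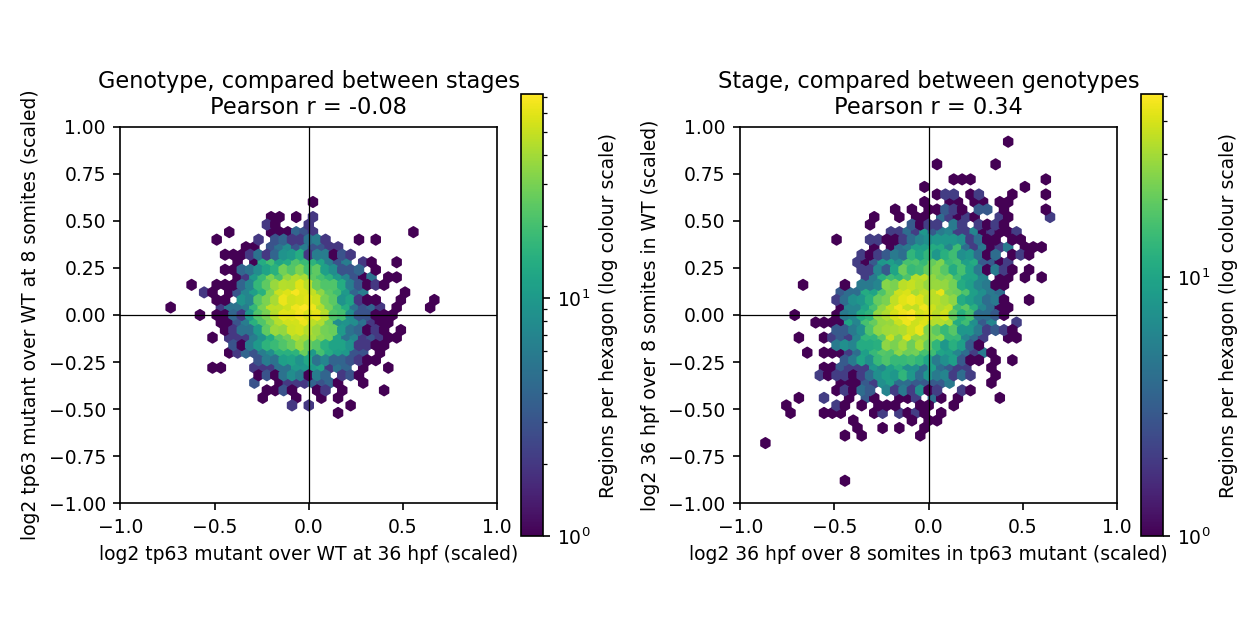
Scaled log2 ratios of fold enrichment over the 4977 strongest regions, coloured by the number of regions per hexagon on a log scale. Left, mutant over WT at 36 hpf (x) and at 8 somites (y), with r = −0.08; right, 36 hpf over 8 somites in mutants (x) and in WT (y), with r = 0.34 and a cloud stretched along the diagonal.

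Regions were named by the smaller of both ratios, where both had the same sign. For genotype, the largest such values were small. In chr1:39954464-39954808 fold enrichment was 15.3 in mutant and 10.3 in WT embryos at 36 hpf, and 19.2 in mutant and 15.6 in WT embryos at 8 somites, which gave scaled folds of 1.48 and 1.37. In chr10:31270020-31270422 the scaled folds of mutant over WT were 1.27 at 36 hpf and 1.32 at 8 somites, and in chr3:60788522-60788874 they were 1.22 and 1.31. The mutant was lower at both stages in chr21:41636083-41636759, with 11.9 in mutant and 14.5 in WT embryos at 36 hpf and 11.98 in mutant and 17.04 in WT embryos at 8 somites, or scaled folds of 0.811 and 0.783. The scaled folds were 0.703 and 0.813 in chr14:45892960-45893387, and 0.814 and 0.780 in chr19:48388796-48389394. None of these 6 regions passed 1.5-fold at either stage.

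For stage, the values of the named regions were larger. Fold enrichment in chr11:3739106-3739861 was 13.4 in mutant and 13.6 in WT embryos at 36 hpf, and 9.84 in mutant and 10.7 in WT embryos at 8 somites, giving scaled folds of 36 hpf over 8 somites of 1.54 in mutants and 1.63 in WT. Similar scaled folds of 1.54 in mutants and 1.57 in WT were found in chr24:42193597-42194202, and of 1.55 in mutants and 1.48 in WT in chr13:50313583-50314142. In the opposite direction stood chr17:45219336-45219518, a narrow region of 183 bp, where fold enrichment was 10.2 in mutant and 10.3 in WT embryos at 36 hpf, and 20.7 in mutant and 21.0 in WT embryos at 8 somites. Its scaled folds were 0.555 in mutants and 0.622 in WT, and its 4 summits lay within 3 bp. In chr7:1463953-1464318 the scaled folds were 0.697 in mutants and 0.693 in WT, and in chr22:18216322-18216669 they were 0.610 in mutants and 0.700 in WT. In the regions named for stage, the scaled log2 ratio of mutant over WT was at most 0.195 in size. It was 0.195 at 36 hpf and 0.184 at 8 somites in chr7:1463953-1464318, and 0.193 at 8 somites in chr22:18216322-18216669. The naming rule asked for stage ratios of the same sign in both genotypes. A difference by stage includes that between a single embryo and a pool.

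The ranks chose the regions, and their relation between lists is given as a description only. Spearman's rho of the ranks over the strongest regions was 0.79 between mutant and WT at 36 hpf, 0.77 between mutant and WT at 8 somites, 0.59 between the stages in mutants and 0.60 between the stages in WT. Over the other regions it was 0.84, 0.79, 0.54 and 0.54, in the same order of pairs. Peak width differed with genotype in opposite directions at the stages. The mutant peak was wider than the WT peak in 63.6% of regions at 36 hpf, with a median difference of 14 bp, and narrower in 63.5% at 8 somites, with a median difference of −12 bp. The other regions had the same pattern, with shares of 61.2% and 62.4%, so it was not particular to the strongest regions.

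The strongest regions were found on all chromosomes used. They made up 12.1% (11.8 to 12.4%) of the regions with a peak in all 4 lists there. This share was highest on chromosome 3, with 303 regions and 14.7% (13.2 to 16.3%), followed by chromosome 25 with 14.4% (12.5 to 16.5%) and chromosome 22 with 14.1% (12.2 to 16.1%). It was lowest on the part of chromosome 4 before 30 Mb, with 72 regions and 8.51% (6.81 to 10.6%), and on chromosome 7, with 248 regions and 10.1% (8.96 to 11.3%). Neighbours in this order mostly had overlapping intervals. On chromosomes other than 4, 27.7% (26.5 to 29.0%) of the strongest regions lay within 5 Mb of the outermost peak of their chromosome, against 23.3% (22.9 to 23.8%) of the other regions. Within 1 Mb the shares were 6.59% (5.92 to 7.31%) and 6.19% (5.95 to 6.45%), with overlapping intervals.

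The nearest other region of any kind lay a median of 2342 bp (2232 to 2486 bp) from the edge of a strongest region, and 2525.5 bp (2491 to 2557 bp) from that of another region. Regions chosen with ranks by fold enrichment in place of the p-value had a median gap of 4544 bp. The limit on peak width was not applied to the other regions. Without it, the median gap of the chosen regions was 2490 bp. The shares that follow were not computed under a common limit on peak width. Close neighbours were more frequent, since 23.9% (22.7 to 25.1%) of the strongest regions had one within 500 bp, against 18.9% (18.5 to 19.3%) of the others. Within 5000 bp the order turned, with 70.1% (68.9 to 71.4%) of the strongest regions and 72.4% (71.9 to 72.9%) of the others. The neighbour within 500 bp was in all 4 lists in 40.3% of these cases, was in 1 list only in 26.1% and was itself one of the strongest regions in 4.29%. For neighbours of the other regions the shares in all 4 lists and in 1 list only were similar, at 41.1% and 27.3%. The share that was one of the strongest regions was higher, at 6.35%. By worst rank, the very strongest regions were the most isolated. The median gap was 3840 bp up to rank 1000, 2759 bp from 1001 to 2500, 2265 bp from 2501 to 5000 and 2232 bp from 5001 to 10000. Past the rank limit it was 2289 bp from 10001 to 20000, 2433 bp from 20001 to 40000 and 2552 bp past 40000. These classes held only regions without a peak of 800 bp or wider. Short gaps were thus not particular to the strongest regions. Successive strongest regions were a median of 134.8 kb apart, against 135.1 kb among 5354 regions of worst rank 10001 to 20000. Of the successive pairs of strongest regions, 32 (0.646%) lay within 1 kb, 114 (2.30%) within 5 kb and 1223 (24.7%) within 50 kb. Among the 5354 regions, the pairs numbered 44 (0.826%), 202 (3.79%) and 1376 (25.8%). Within 10 kb the shares were 5.74% and 6.96%. The median distance and the share within 50 kb were thus not particular to the strongest regions. Pairs within 5 kb were less frequent among the strongest regions.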

How the data were processed

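Per the labels and the study's methods, ATAC-seq libraries of whole embryos were aligned to GRCz10 (danRer10); the submitters' processing notes name Bowtie2 and SAMtools. The authors removed read pairs with distant mates, shifted reads to the Tn5 cut and kept peaks by the IDR framework over 2 replicates, which gave 1 list per group. The largest global IDR in the lists was 0.1. The peak caller was not given in the sources used here. Deposited values per peak were a fold enrichment (a linear ratio), the −log10 p-value and −log10 q-value, an IDR score, the −log10 of the local and global IDR, and the summit. The q-value and the IDR score were not used. An IDR list depends on the weaker replicate.

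Ranks, the union of 137841 regions, summit distances and ratios were computed from the deposited lists with Python 3.11.15, numpy 2.4.6, pandas 2.3.3 and scipy 1.17.1, and plotted with matplotlib 3.10.9. Remaining ties were broken by position. The union was checked against bedtools 2.31.1, and the selection by rank and the ratios were tested on simulated data. The simulation did not test the criteria on width and position, and it checked the ratios in the simulated strongest regions only. In each list, the highest-ranked peak stood for a region. The regions and lists were chosen with earlier results of these data known. Named regions were the 10 with the smallest worst rank, the 3 highest and 3 lowest by genotype and by stage ratio (the smaller of both where signs agreed) and the 3 on either side of the rank limit; others are said to be named after their values were seen. Planned analyses of start sites, GC, CpG, motifs and gene lists need a GRCz10 genome or annotation and were not run.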

Additional observations from a re-analysis of the deposited data

How the results depend on the processing

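Counts of regions followed the rank limit by construction. There were 2351 regions at rank 5000 or better and 10331 at rank 20000 or better. The share with all summits within 50 bp was 83.6% at rank 5000, 75.8% at rank 20000 and 81.3% with ranks by fold enrichment, and 42.7% of regions had them within 20 bp. The median summit spread was 28 bp at rank 20000. The median gap to the nearest region was 2537 bp at rank 5000, 2490 bp without a limit on peak width and 4544 bp with ranks by fold enrichment, nearly double. Regions past 1.5-fold at rank 5000 numbered 1 for genotype at 36 hpf, 3 for stage in mutants and 7 for stage in WT, and at rank 20000 there were 13 and 9 for genotype at 36 hpf and 8 somites, and 65 and 130 for stage in mutants and WT. For genotype at 8 somites, 3 regions passed with ranks by fold enrichment, all lower in mutants. With ratios as deposited, 9, 119 and 406 passed for genotype at 8 somites, stage in mutants and stage in WT, all lower. At a fold of 2, 0 passed in each of the 4 comparisons. An overlap of 50% of both peaks and the inclusion of all sequences moved none of these values beyond its interval or by over 1.5 times. The share over all regions was not computed under the alternative settings, so nothing is read from the counts past a fold.

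The alternatives for summit patterns and correlations were chosen after seeing the data. The correlation of genotype ratios stayed between −0.09 and −0.06 and that of stage ratios between 0.32 and 0.42. Summits apart by stage numbered between 2 and 61, and summits apart by genotype between 0 and 18, with the lowest counts at rank 5000 and beyond 150 bp, and the highest beyond 50 bp. Beyond 50 bp, the shares were 1.23% by stage and 0.362% by genotype, against 1.89% and 0.751% of the other regions. The crossed pattern was found there in 17 of the strongest regions, or 0.342%, against 0.665% of the others. Nothing is read from these counts.

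No paired analysis was possible because each group had 1 list made from both replicates and the lists carry no replicate numbers. For the same reason none was left out. Alternatives on start sites, GC, CpG, motifs and sequence windows were not run. Depth per library cannot be read from peak lists, and a difference between lists cannot be told apart from variation between embryos.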
